A study of Rattus norvegicus with 8 samples.

Results

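Genes of the caspase cascade and of the mitochondrial route into it were described on 8 one-colour Affymetrix whole-genome arrays of granulosa cells from rat ovaries, which surround and nourish the oocyte. The genes were Casp2, Casp6, Casp8, Casp9, Apaf1, Cycs, Diablo and Endog, and their members were the probe sets whose platform annotation named exactly 1 of these 8 genes. Of 20826 probe sets with 1 gene symbol, 12 were members, and they covered 7 of the 8 genes. Both probe sets that named Cycs, which encodes cytochrome c, also named the related sequences Cycsl1 and Cycs-ps9, so no value is given for Cycs.

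All 8 arrays were labelled as granulosa cells isolated from ovarian follicles. Immature rats had been injected with eCG, a gonadotropin that makes follicles grow, and 24 h later with anti-eCG antibody, which was meant to induce atresia, the degeneration of the follicle, or with pre-immune serum. The labels of the arrays differ only in a number and place no array in either treatment, so no comparison between treatments and no test between groups was made. Values are given per array, named by its label, always in the order 2074, 2076, 2194, 2195, 2196, 2197, 2198 and 2199, and precision is limited by how few arrays there are.

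Caspases are proteases held as inactive precursors in most cells. In the mitochondrial route, cytochrome c released into the cytosol binds Apaf1, which assembles into the apoptosome and activates the initiator caspase Casp9. Death receptors act through the initiator Casp8, Casp2 is activated on the PIDDosome, and effector caspases such as Casp6 cut the substrates. Diablo (also called Smac) leaves mitochondria and relieves the block that inhibitor of apoptosis proteins put on caspases, and Endog is a mitochondrial nuclease that can act on nuclear DNA. Granulosa cell apoptosis is a hallmark of follicular atresia. Caspases are switched on by cleavage and assembly, which an RNA measurement does not record.

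Promoter sequence from RefSeq (rat build GRCr8) is shown for the genes at the ends of the range of spread described below, Apaf1 as the narrowest and Endog as the widest. Each sequence is the 250 bases before the annotated start, 5′ to 3′ on the gene's strand, with GC boxes and CCAAT boxes in capitals.
Apaf1, chr7:27466773-27467022, minus strand: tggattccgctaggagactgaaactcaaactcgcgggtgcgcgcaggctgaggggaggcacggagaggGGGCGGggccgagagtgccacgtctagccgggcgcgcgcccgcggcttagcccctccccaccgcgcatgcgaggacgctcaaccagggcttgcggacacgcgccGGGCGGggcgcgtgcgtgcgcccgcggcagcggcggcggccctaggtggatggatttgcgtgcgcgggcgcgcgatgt
Endog, chr3:33846685-33846934, plus strand: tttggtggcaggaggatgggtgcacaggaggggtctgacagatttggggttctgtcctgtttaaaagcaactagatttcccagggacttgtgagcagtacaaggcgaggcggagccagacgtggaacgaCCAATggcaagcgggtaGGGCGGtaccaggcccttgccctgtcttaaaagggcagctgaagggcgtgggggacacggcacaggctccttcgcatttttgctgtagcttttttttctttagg
The Apaf1 window held 2 GC boxes and no CCAAT box, and the Endog window held 1 of each. Bases G and C made up 74.0% of the Apaf1 window and 55.2% of the Endog window, against a median of 60.0% over the 9818 windows of genes measured on these arrays.

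Motifs were searched in the same windows of the 6 genes with a promoter entry, which left out Casp8. A GC box (GGGCGG on either strand) was found in 6 of 6 windows, against 57.8% of the 9818 windows of measured genes and 30.5% of all 33469 windows. A CCAAT box (CCAAT on either strand) was found in 3 of 6, in Casp2, Diablo and Endog, against 35.1% of measured genes. A TATA box (TATAAA on either strand) was found in 0 of 6, against 6.79%. The E2F site form TTTCCCGC lay in the Casp2 window, at position -227 from the start, against 1.72% of measured genes. The other E2F forms, TTTGGCGC, TTTCGCGC and TTTGCCGC, and the FOXO site GTAAACA were found in 0 of 6 windows, against shares of 0.672%, 0.489%, 0.407% and 2.14% of measured genes. No 2 of these matches overlapped. A match describes letters in the window and no binding was measured.

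Signals are MAS5 intensities that were scaled so that the bright probe sets of all arrays had 1 median. A floor was set at the 40th percentile of each array (signals of 272.5 to 471), since MAS5 values below it are noisy. A probe set counted as measured when it lay above its array's median on at least 2 arrays, which held for 9 of the 12 members and for 14058 probe sets in all. The spread is given as the inner range: after the floor, the second highest array is divided by the second lowest, so that the extreme array at either end drops out. Where a value under the floor sets it, it is a lower bound and written "at least". Where a gene had several measured probe sets, the brightest stood for it, which gave 7 listed genes and 10513 genes in all.

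Arrays differed in ways that the labels do not explain. Array 2195 had the highest floor, 471, and the lowest median Spearman correlation with the others across measured probe sets, 0.843, against 0.874 to 0.894 for the other 7 arrays. The ratio of the 3′ to the 5′ control probe set for beta-actin, a measure of RNA length, was 10.99 on array 2074 and 12.1 on array 2076, whereas the other 6 arrays had 4.67 to 8.08. The same ratio for GAPDH was highest on array 2197, at 8.81, and 5.27 to 7.99 elsewhere. Of 9 granulosa markers, 8 had a probe set and all 8 were measured, with a summed signal between 254720 and 316056. For theca and stroma 6 of 7 markers were measured (Des was not), and their sum ran from 2692 on array 2196 to 6902 on array 2198. For macrophages and other leukocytes 6 of 8 were measured, without the defining Ptprc and without Itgam, with sums of 5573 to 9416. For endothelium 2 of 4 with a probe set were measured, without Kdr and Vwf, and the sum ran from 273 on array 2198 to 1964 on array 2195. The oocyte markers Zp1, Zp3 and Bmp15 were not measured, and the other 2 with a probe set, Gdf9 and Zp2, summed to 259 to 1878. The erythroid markers Hbb and Alas2 summed to 48897 on array 2074 and 3797 to 13218 elsewhere. Signals in these sums were not raised to the floor. The endothelium low of 273 on array 2198 lay under that array's floor for 1 probe set, 384. The oocyte low of 259 on array 2197 lay under the floor of 272.5 there, so these 2 sums are not read as cell content. In such bulk RNA, fewer cells of a type and less RNA per cell cannot be told apart.

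Among the caspase and apoptosome genes, Apaf1, Casp9, Casp6 and Diablo varied by less than 1.5-fold in inner range, Casp8 and Casp2 by 1.71-fold and 1.93-fold, and Endog by at least 2.35-fold. A spread of 2-fold or more was seen in 2 of the 9 measured member probe sets, where 31.7% of all measured probe sets reached it. By gene it was reached by 1 of 7, where 29.8% of measured genes did. An inner range under 1.5-fold was found in 4 of the 7 genes (Apaf1, Casp6, Casp9 and Diablo), where 28.2% of measured genes had one. This count reads only the brightest probe set of each gene. The other measured probe sets of Apaf1 and Casp9 had at least 2.12-fold and at least 1.94-fold. The median inner range was 1.71-fold over the 9 member probe sets and 1.74-fold over all measured probe sets. Over genes it was 1.43-fold for the 7 and 1.71-fold for all. The count of member probe sets at 2-fold or more was 0 of 7 measured without array 2195, where 23.2% of all measured probe sets reached it, 1 of 9 without array 2197 (25.7%) and 1 of 7 without array 2198 (24.8%).

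**Figure D1:**
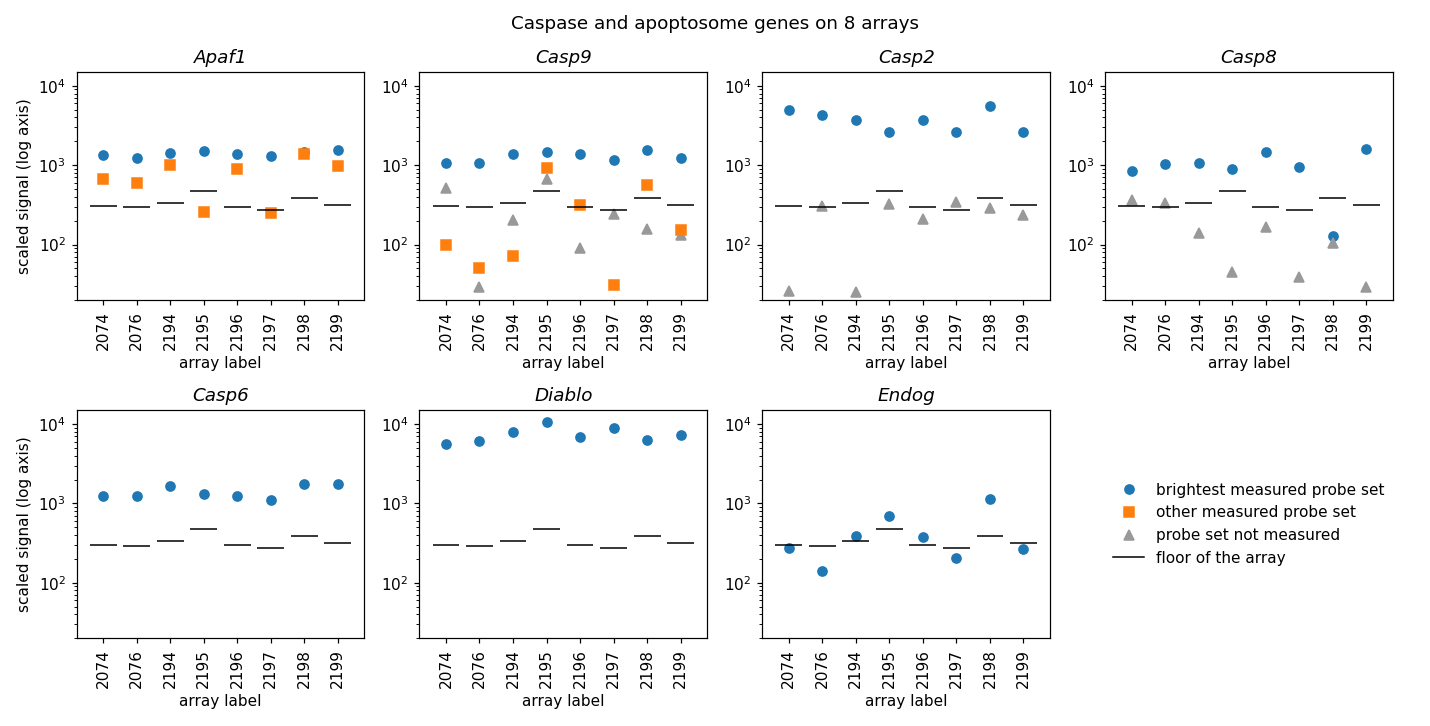
Scaled signal (log axis) of every member probe set on the 8 arrays, 1 panel per gene, with horizontal bars for the floor of each array. Circles mark the brightest measured probe set, squares other measured probe sets and triangles those not measured. The circles of Apaf1 lie between 1247 and 1549, while those of Endog lie on both sides of the floor and peak at 1132 on array 2198.

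Apaf1, the scaffold of the apoptosome, had the narrowest spread of the 7. Its brighter probe set (1369197_at) gave scaled signals of 1344, 1247, 1429, 1502, 1368, 1301, 1478 and 1549. No array stood apart, and the lowest and highest arrays, 2076 and 2199, differed by 1.24-fold. The inner range of 1.15-fold was smaller than that of all but 0.868% of measured probe sets and of all but 0.2% of the 1000 nearest in signal. Leaving out any 1 array kept it between 1.11-fold and 1.15-fold.

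The other Apaf1 probe set (1369198_at) did not show that steadiness. Its signals were 666, 592, 998, 257, 895, 253, 1402 and 985. Arrays 2195 and 2197 were under the floor, while array 2198 was the highest. The inner range was at least 2.12-fold, larger than in 74.5% of measured probe sets. On array 2195 the 3′ to 5′ ratio of beta-actin was 4.67 and that of GAPDH 5.88, and on array 2197 they were 8.08 and 8.81. The part of these ratios in the low signals was not tested. The spread of Apaf1 RNA therefore depends on which probe set is read.

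Casp9, the initiator caspase that the apoptosome activates, also varied little in its brightest probe set (1368652_at). The signals were 1062, 1069, 1383, 1474, 1367, 1156, 1546 and 1247. Arrays 2074 and 2076 were the lowest of the 8 and array 2198 the highest, an order that held with no scaling and with quantile normalization too. The inner range was 1.38-fold and the full range, highest over lowest, 1.46-fold. Over the 6 arrays 2194 to 2199 the inner range was 1.17-fold.

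The remaining Casp9 probe sets were mostly under the floor. The probe set 1388083_a_at was under it on 5 arrays and reached 922 on array 2195, 569 on array 2198 and 317 on array 2196, with an inner range of at least 1.94-fold. Without array 2195 or array 2198 that bound was 1.14-fold. The probe set 1370737_at did not count as measured, since it was above the median on 1 array, array 2074, at 515. Its signal on array 2195 was higher, at 663, but not above the median of that array.

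Casp2, the initiator linked to the PIDDosome, spread the most among the genes that were above the floor on all 8 arrays. Its signals (1367890_at) were 5026, 4234, 3750.4, 2607, 3758, 2653, 5543 and 2583. Arrays 2198 and 2074 were the highest, and arrays 2195, 2197 and 2199 lay close together at the low end. The inner range was 1.93-fold, larger than in 63.8% of measured probe sets and in 80.8% of the 1000 nearest in signal. It was 1.63-fold without array 2074, 1.64-fold without array 2198, 1.46-fold over arrays 2194 to 2199 and 2.01-fold under quantile normalization. The other Casp2 probe set (1367891_a_at) was above the array's median on 0 arrays, so only 1 probe set bears on the order of the arrays.

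Casp8, the initiator downstream of death receptors, lay between 854 and 1591 on 7 arrays and under the floor on 1. Its measured probe set (1380297_at) gave 854, 1038, 1064, 899, 1462, 961, 129.96 and 1591. Array 2198 was under its floor of 384, and arrays 2196 and 2199 were the highest. The inner range, which leaves out array 2198 as the lowest, was 1.71-fold, and the full range after the floor was at least 4.15-fold. Without array 2196 or array 2199 the inner range was 1.25-fold, and under quantile normalization it was 2.30-fold. The other Casp8 probe set (1369262_at) was above the median on 0 arrays, with its highest signals, 361 and 332, on arrays 2074 and 2076.

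Casp6, an effector caspase, had 1 probe set (1368305_at). Its signals were 1225, 1231, 1647, 1327, 1237, 1109.8, 1761 and 1741. Arrays 2198, 2199 and 2194, at 1647 to 1761, lay apart from the other 5, at 1109.8 to 1327. The inner range was 1.42-fold, larger than in 17.8% of measured probe sets, and it stayed between 1.34-fold and 1.43-fold when any 1 array was left out. Array 2198 was the highest after scaling, whereas array 2199 was the highest with no scaling and under quantile normalization.

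Diablo, the mitochondrial protein that counters inhibitor of apoptosis proteins, gave signals (1372017_at) of 5642, 6172, 7934, 10473, 6785, 8855, 6320.02 and 7183. Array 2195 was the highest, followed by array 2197. Arrays 2074 and 2076 were the lowest, but array 2198 was close to array 2076 in signal, and that order did not hold with no scaling or under quantile normalization. The inner range was 1.43-fold and the full range 1.86-fold.

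Endog, the mitochondrial nuclease, was the widest of the 7 and lay near the floor on most arrays. Its probe set (1389816_at) gave 277, 141.9, 384, 691, 382, 203, 1132 and 267. Arrays 2198 and 2195 were the only ones above their array's median, array 2195 barely so, and arrays 2074, 2076, 2197 and 2199 were under the floor. The inner range was at least 2.35-fold, larger than in 83.6% of measured probe sets. It rested on these high arrays, since without array 2195 or array 2198 Endog no longer counted as measured and the bound was 1.31-fold, and under quantile normalization it was 1.45-fold.

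Among 1585 other genes with an inner range of at least 2-fold and no array under the floor, 3 had the profile most like that of Endog. These were Kpna6, an importin alpha (Pearson r = 0.94 over 8 arrays and 0.94 over arrays 2194 to 2199), Snrpd2, a core spliceosome protein (0.89 and 0.97), and Fbxo28, an F-box protein (0.88 and 0.86). Each of the 3 was highest on array 2198 and next on array 2195, with Kpna6 signals of 1757 and 1188 there against 542 to 856 elsewhere. They were picked as the highest of many values, 4 Endog values were set to the floor, and no p-value is attached. Array 2198 was also the array with the highest theca and stroma sum. Its granulosa sum was the highest too, at 316056 against 315717 on array 2074. Arrays 2195 and 2198 had the 2 highest floors, 471 and 384, against 272.5 to 335 on the others. The part of those sums and of the floors in these profiles was not tested.

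Some orders of the arrays, picked out after the values were seen, were shared by several of these genes. Array 2198 was the highest for 4 of the 7 genes (Casp2, Casp6, Casp9 and Endog), where 14.5% of measured genes were highest there. The count was 3 with no scaling (12.2% of measured genes) and 3 under quantile normalization (12.8%), since Casp6 was then highest on array 2199. Endog counted as measured only through arrays 2198 and 2195, so its place in the count is tied to that filter. Array 2198 was at the same time the lowest for Casp8. Arrays 2074 and 2076 were both lower than the other 6 for Casp9 and Diablo, 2 of the 7, where 13.6% of measured genes showed that order. The opposite order, both higher than the other 6, was found in 0 of the 7 and in 13.8% of measured genes. Arrays 2074 and 2076 also had the highest beta-actin 3′ to 5′ ratios. Their GAPDH ratios, 6.66 and 6.07, were not the highest, against 8.81 on array 2197. The part of these ratios in the order was not tested.

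**Figure D2:**
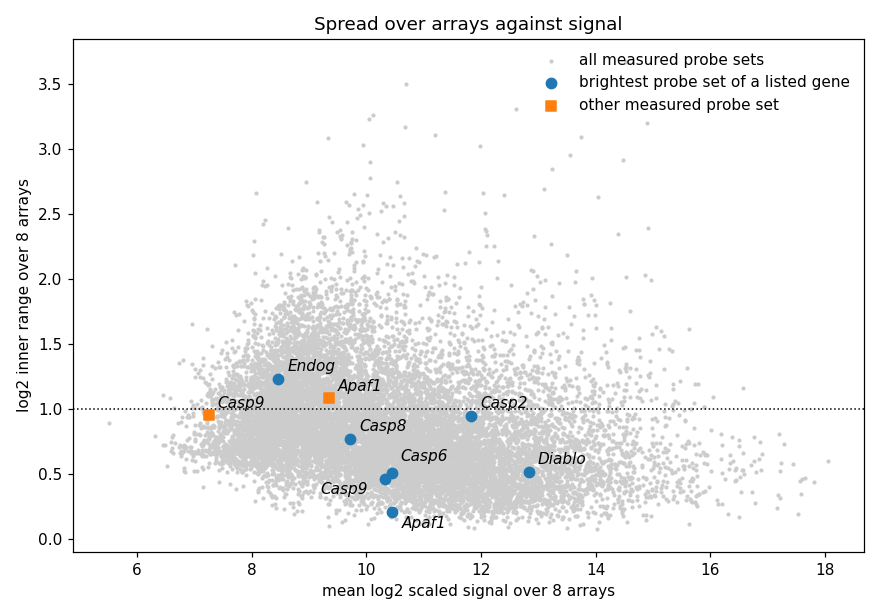
Log2 inner range over the 8 arrays against mean log2 scaled signal for all 14058 measured probe sets (grey), the brightest probe sets of the 7 genes (circles) and their other measured probe sets (squares). The dotted line marks 2-fold, which Endog and the dimmer Apaf1 probe set pass, and the brighter Apaf1 probe set lies at the lower edge at 0.21.

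A wider list of death pathway genes was set beside these 7. Of its 32 genes with a probe set used here, 30 were measured, and Casp12 and Septin4 were not. A spread of 2-fold or more was seen in 6 of the 30, where 29.8% of measured genes had one, and a spread under 1.5-fold in 11, where 28.2% had one. Their median was 1.69-fold, close to the 1.71-fold of all measured genes.

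The widest of these was Dffa, followed by Casp8ap2, Aifm3, Aifm2, Acin1 and Dffb. Dffa, which holds the caspase-activated nuclease inactive until caspases cut it, gave 4765 on array 2074 and 4995 on array 2076, whereas the other 6 arrays had 9448 to 14365. Its inner range of 2.85-fold rested on those 2 arrays, since it was 1.51-fold with either left out. The dimmer Dffa probe set (1369082_at) was under the floor on 4 arrays, with array 2198 the lowest and array 2195 the highest. Dffb, the nuclease itself, had at least 2.01-fold, under the floor on 4 arrays and highest on array 2195 at 1017. Casp8ap2, a nuclear protein that binds Casp8, had 2.45-fold, with 1320 on arrays 2195 and 2198 and 463 on array 2199. Its dimmer probe set (1385639_at) gave another order, with 571 on array 2195, 987 on array 2198 and 788 on array 2199. Acin1, a chromatin condensation factor cut by caspases, had 2.15-fold with 817 on array 2195 and 2264 to 4863 on the others. Its dimmer measured probe sets did not put array 2195 low. There 1394774_at had 1535, its second highest signal, and 1396098_at had 1306, its highest. For these genes too the order of the arrays depends on the probe set.

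Of the genes related to apoptosis-inducing factor, Aifm3 had an inner range of 2.26-fold and Aifm2, an oxidoreductase known for restraining ferroptosis, 2.17-fold. The brighter Aifm2 probe set was highest on array 2197. The dimmer one (1378989_at) had at least 3.42-fold, with 3 arrays under the floor and array 2195 the highest. Parp1, a DNA repair enzyme cut by caspases, had 1.88-fold and Xkr8, a lipid scramblase that caspases activate, at least 1.87-fold with 2 arrays under the floor.

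The narrowest 3 were Htra2, Pidd1 and Slc25a5. Htra2, a mitochondrial protease that like Diablo counters inhibitor of apoptosis proteins, had 1.19-fold, between 1688 and 2221. Pidd1, the core of the PIDDosome that activates Casp2, had 1.20-fold, although array 2074 was low at 642 and array 2197 high at 1459. Slc25a5, a carrier that exchanges ATP and ADP in mitochondria, had 1.22-fold. Arrays 2074 and 2076 were both the lowest for Dffa, Cradd, Hccs and Xiap, 4 of the 30, where 13.6% of measured genes showed that order. They were both the highest for Cyc1, Slc25a4 and Vdac2, 3 of the 30, where 13.8% did.

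**Figure D3:**
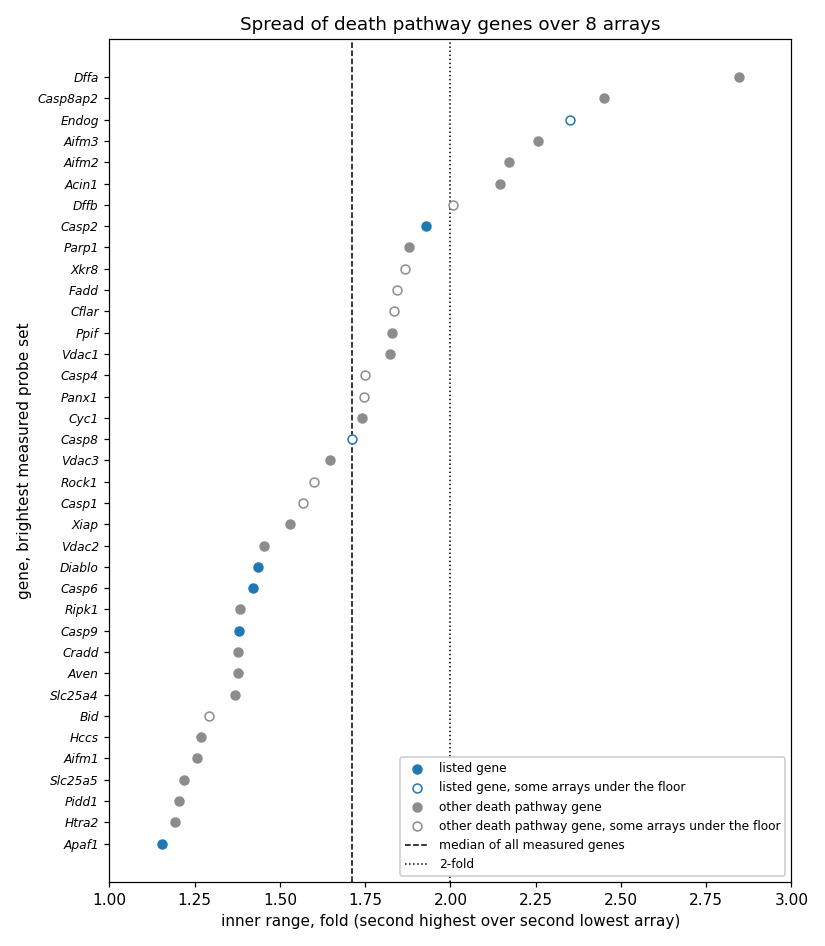
Inner range (fold) of the brightest measured probe set for the 7 listed genes (blue) and 30 other death pathway genes (grey), open where at least 1 array was under the floor. The dashed line is the median of all measured genes, 1.71-fold, and the dotted line 2-fold. Apaf1 is the narrowest of the 37 genes and Dffa the widest.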

How the data were processed

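Total RNA of rat granulosa cells was biotin-labelled and hybridised to 1-colour Affymetrix arrays, per the labels' protocols. The deposited table holds signal intensity on a linear scale for 31099 probe sets on 8 arrays, and the submitters' processing notes name MAS5 as the authors' tool. Its mean after trimming 2% at each end was 1500.53 to 1500.62 on every array. Detection calls were not used here. Controls (57) were left out, signals were put on the log2 scale, each array was scaled to the mean of the arrays' medians over probe sets above the median on all arrays, and values under the 40th percentile were raised to it. Names came from the platform annotation, which can be old. Probe sets with several symbols (436) were left out, and gene identifiers looked up in a GRCr8 table changed 0 symbols. Promoters are from RefSeq.

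The labels give no groups, so all arrays stayed unassigned and no test between groups was run. Dixon's ratio was used on the measured members to find an array far from the others. The members, lists and alternatives were chosen with earlier results of these data known. Named are all members, the 8 widest and 3 narrowest of a death pathway list (and others of it to complete a count), and for a member with at least 2-fold inner range the 3 genes with the highest correlation. Alternatives were no scaling, quantile normalization, other floors and filters, the full range, probe sets averaged per gene, each array left out, and arrays 2194 to 2199 alone. The steps were tested on simulated data, with pandas 2.3.3, numpy 2.4.6 and matplotlib 3.10.9.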

Additional observations from a re-analysis of the deposited data

Results flagged for a closer look

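The Casp8 signal on array 2198 lay far from the other 7 arrays. It was 129.96, raised to the floor of 384, and the next lowest array had 854. The gap made up 0.563 of the log2 range over the 8 arrays, above Dixon's 95% critical value for 8 values. It was the only 1 of 9 measured member probe sets past that value, and chance passes it in about 1 in 20 groups. The same array was the highest for Casp2, Casp6, Casp9 and Endog. For Casp6 this held only with the median scaling, and Endog counted as measured only through arrays 2198 and 2195.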

How the results depend on the processing

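The median inner range of the measured member probe sets, 0.78 in log2 or 1.71-fold, depended on the processing. It was 1.42-fold over probe sets above the median on all 8 arrays, and 2.15-fold with the full range. Without array 2195, 2196, 2198 or 2199 it was 1.43-fold to 1.44-fold, and under quantile normalization 1.45-fold. Without array 2074, 2076, 2194 or 2197 it was 1.63-fold to 1.71-fold. Under every alternative run the move was smaller than the mean SD between arrays. That SD is not the error of a median, so it cannot show the median to be stable. The number of member probe sets at 2-fold or more was 2, and 0 (of 5) when only probe sets above the median on all 8 arrays were kept, which leaves fewer probe sets by construction, and 20.1% of all such probe sets then reached 2-fold. It was 5 of 9 when the full range replaced the inner range, which is wider by construction, and 74.2% of all measured probe sets then reached 2-fold. It ran from 0 to 2 when each array was left out in turn (20.5% to 26.7% of all measured probe sets), with 0 of 7 without array 2195 (23.2%). The number of genes lowest on arrays 2074 and 2076 was 2, and 1 with no scaling (11.3% of measured genes), where Diablo no longer showed that order. That count, the number of genes highest on array 2198 and their alternatives were chosen after seeing the data. Under quantile normalization the 2 were Apaf1 and Casp9 (11.9% of measured genes). Quantile normalization put Casp2 (2.01-fold) and Casp8 (2.30-fold) past 2-fold and Endog (1.45-fold) below it. Of 115 values of single genes under alternatives, 6 moved by more than the gene's SD over arrays. The 115 leave out a gene where an alternative left it unmeasured. Among those left out is Endog without array 2195 or array 2198, where its bound fell from 2.35-fold to 1.31-fold, more than its SD. For Apaf1 and Casp9 the mean of the measured probe sets gave 1.47-fold and 1.67-fold, so Casp9 was then no longer under 1.5-fold. No paired analysis was possible because the labels place no array in a group. Low signal limits the dimmer members, of which 4 of the 9 measured had at least 1 array under the floor.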
